A study of Mus musculus with 16 samples.

Results

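The miR-29 family was followed by name through a table of miRNA counts from primary cultures of mouse forebrain neurons. The members were the 5 listed rows mmu-miR-29a-3p, mmu-miR-29b-3p, mmu-miR-29c-3p, mmu-miR-29a-5p and mmu-miR-29c-5p (the prefix for mouse is dropped from here on), out of 1978 named miRNAs. The remaining 2 arms of the family in the table, miR-29b-1-5p and miR-29b-2-5p, are given beside them. All cultures were perinatal neurons transduced with a lentiviral vector. The 4 groups of 4 libraries had received an empty vector (Empty_Vector), a small hairpin RNA (shRNA), or that hairpin with 2 or 5 point mutations (shRNA_2bp and shRNA_5bp). The labels name neither the target of the hairpin nor the promoter of the vector, and do not give a mouse strain or age. They do not say whether the 4 replicates of a group were separate cultures or animals, so p-values measure the spread between libraries only, which may be technical.

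The series is about changes that hairpins cause in neuronal miRNAs whatever their target. A hairpin made inside the cell enters the same pathway as a miRNA precursor, in which Dicer cuts the hairpin and one arm is kept as guide by an Argonaute protein. MiR-29 guides silence genes through the seed near their 5′ end, and their best known targets include collagens, the DNA methyltransferases Dnmt3a and Dnmt3b, and pro-apoptotic BH3-only genes. In the forebrain the family is known to increase as neurons mature, and it is also abundant in astrocytes.

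The mature sequences show how the family is built and which rows the seed joins. All 7 names were found in RefSeq on GRCm38.p6, the build given by the submitters. Bases 2 to 8, the seed, are in capitals.
miR-29a-3p: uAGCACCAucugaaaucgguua
miR-29b-3p: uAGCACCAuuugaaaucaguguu
miR-29c-3p: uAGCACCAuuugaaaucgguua
miR-29a-5p: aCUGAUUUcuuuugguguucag
miR-29b-1-5p: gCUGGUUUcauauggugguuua
miR-29b-2-5p: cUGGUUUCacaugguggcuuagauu
miR-29c-5p: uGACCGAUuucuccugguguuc

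The 3 guide strands, all 3p arms, shared the seed AGCACCA, and no other mouse miRNA name in that sequence table carried it. Counted from the 5′ end, miR-29a-3p and miR-29c-3p differed at 1 of 22 bases (C10U). MiR-29a-3p and miR-29b-3p differed at 4 of the 22 bases compared (C10U, G18A, U21G and A22U), and miR-29b-3p is 1 base longer. The opposite 5p arms had 4 different seeds, of which only that of miR-29b-2-5p was shared with another name, miR-6338.

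The family comes from 2 pairs of precursors. On chromosome 6, minus strand, Mir29a (chr6:31062660-31062747) and Mir29b-1 (chr6:31063023-31063093) are separated by 275 bases. GENCODE M21 lists no other gene over Mir29a, and the lincRNA gene Gm27019 overlaps Mir29b-1 by 2 bases. On chromosome 1, plus strand, Mir29b-2 (chr1:195037040-195037120) and Mir29c (chr1:195037547-195037634) are separated by 426 bases. Both lie in an exon of the non-coding host transcript A330023F24Rik and opposite an exon of Cd46, in its UTR. The mature miR-29b-3p is the same molecule from either locus, so its counts cannot be split between chromosomes 1 and 6. Its 5p arms can be told apart. The Mir29a precursor, the source of most family reads, is printed here with the 5p arm and then the 3p arm in capitals.
Mir29a: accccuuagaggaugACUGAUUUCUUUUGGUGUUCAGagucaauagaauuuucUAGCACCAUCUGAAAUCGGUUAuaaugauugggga

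Depth differed with the group. Library totals were 2760894 to 11139163 counts with the empty vector and 5304461 to 8061785 with shRNA, but 1177068 to 2097782 with shRNA_2bp and 831859 to 2496036 with shRNA_5bp. Levels are given as CPM, a count divided by its library total and multiplied by 1e6, after scaling by trimmed means of M values (TMM). A miRNA rose or fell where edgeR's quasi-likelihood test gave an adjusted p below 0.05 (Benjamini-Hochberg over the 483 miRNAs that passed the filter on low counts). Of the 5 listed members 4 passed that filter, and miR-29a-5p did not. Neither did miR-29b-1-5p or miR-29b-2-5p. The neuron markers fixed for this work summed to 250800 to 479800 CPM across all libraries, against 2205 to 4392 CPM for astroglia-leaning miRNAs. In bulk libraries, fewer cells of a type and less RNA per cell cannot be told apart.

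MiR-29a-3p made up nearly all reads of the 3 guide strands in these neurons. Of the reads of all 7 arms it held 92.1% to 94.4% with the empty vector. It held 95.9% to 98.1% of the reads of the 3 guide strands with the empty vector, 95% to 97.9% with shRNA, 96.3% to 99.6% with shRNA_2bp and 97.3% to 98.2% with shRNA_5bp. In empty-vector cultures miR-29a-3p stood at 426.3 ± 33.74 CPM (SD, n = 4), rank 102 of the 1978 names. MiR-29c-5p followed at 14.69 ± 1.479 CPM (rank 302), then miR-29b-3p at 7.221 ± 2.517 CPM (rank 374) and miR-29c-3p at 4.068 ± 1.69 CPM (rank 425). These are reads of molecules of nearly equal length (22 to 23 bases). How evenly the library kit captured each sequence was not tested. Together the 3 guides held 0.0397 ± 0.0024% of all counts in empty-vector libraries and 0.0665 ± 0.0086% in shRNA libraries. The share in the mutated-hairpin groups came to 0.0338 ± 0.0044% (shRNA_2bp) and 0.0473 ± 0.0057% (shRNA_5bp). The sum is given as a description without a test.

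The dominant guide, miR-29a-3p, was high with shRNA and low with shRNA_2bp. The 4 empty-vector libraries read 404.5, 476.2, 407.2 and 417.4 CPM. Those with shRNA read 555.9, 721.3, 635.7 and 662.1 CPM. ShRNA_2bp gave 266.4, 353.3, 320.7 and 347.7 CPM, and shRNA_5bp 417.4, 472.2, 379.7 and 451.7 CPM. Every shRNA library lay above every other library, every shRNA_2bp library lay below every other library, and the empty vector and shRNA_5bp overlapped. Without TMM scaling the highest shRNA_2bp library (372.3 CPM) reached past the lowest empty-vector library (366.8 CPM).

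**Figure D1:**
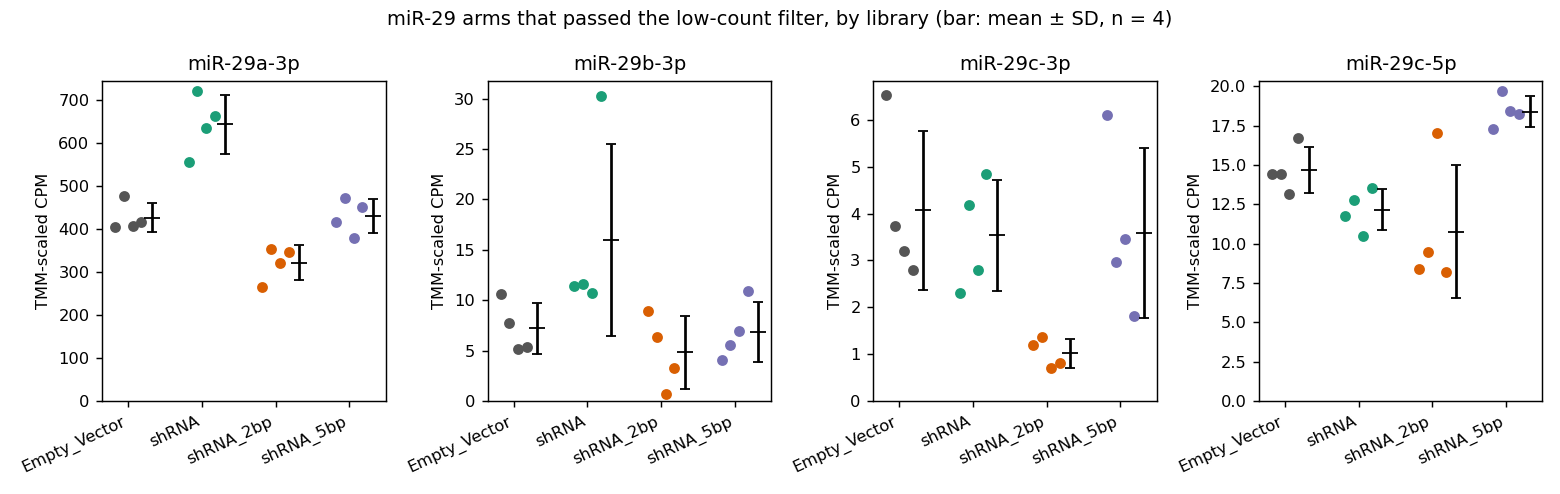
TMM-scaled CPM (vertical axis, from 0, a separate scale in each panel) of the 4 miR-29 arms that passed the low-count filter, by group. Points are libraries in replicate order and bars give the mean ± SD (n = 4); miR-29a-3p with shRNA sits between 555.9 and 721.3 CPM, and 1 shRNA library reads 30.26 CPM for miR-29b-3p.

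Against the empty vector, miR-29a-3p rose 1.51-fold with shRNA, a log2 fold change of 0.59 ± 0.087 (SE; adjusted p = 3.74e-06). With shRNA_2bp it fell by 0.41 on the log2 scale (SE 0.091, adjusted p = 0.000319), which is 1.33-fold lower. With shRNA_5bp its log2 fold change was 0.02 ± 0.090 (adjusted p = 0.864), with a 95% interval of -0.18 to 0.21. These 3 comparisons share the empty-vector libraries.

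The call of miR-29a-3p depended on scaling in 2 of these 3 comparisons. The most abundant miRNA of the libraries, miR-128-3p, moved with the groups, from 427000 ± 14820 CPM with the empty vector to 331100 ± 22700 CPM with shRNA, 240700 ± 11200 CPM with shRNA_2bp and 243500 ± 26640 CPM with shRNA_5bp, and its part in the scaling was not tested. When libraries were scaled by their totals alone, the median log2 fold change of all tested miRNAs moved from 0.01 to 0.19 with shRNA_2bp and from 0.06 to 0.3 with shRNA_5bp. MiR-29a-3p then stood at -0.22 (adjusted p = 0.0532) with shRNA_2bp and at 0.27 (adjusted p = 0.0244) with shRNA_5bp. Without the filter on low counts the shRNA_5bp value was -0.22 (adjusted p = 0.0373), while the median of all miRNAs was -0.28. In each of these fits the shRNA_5bp value therefore lay within 0.1 of the median miRNA. With shRNA the value of miR-29a-3p was 0.54 to 0.74 in the 14 alternatives run, all with an adjusted p below 0.05.

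**Figure D2:**
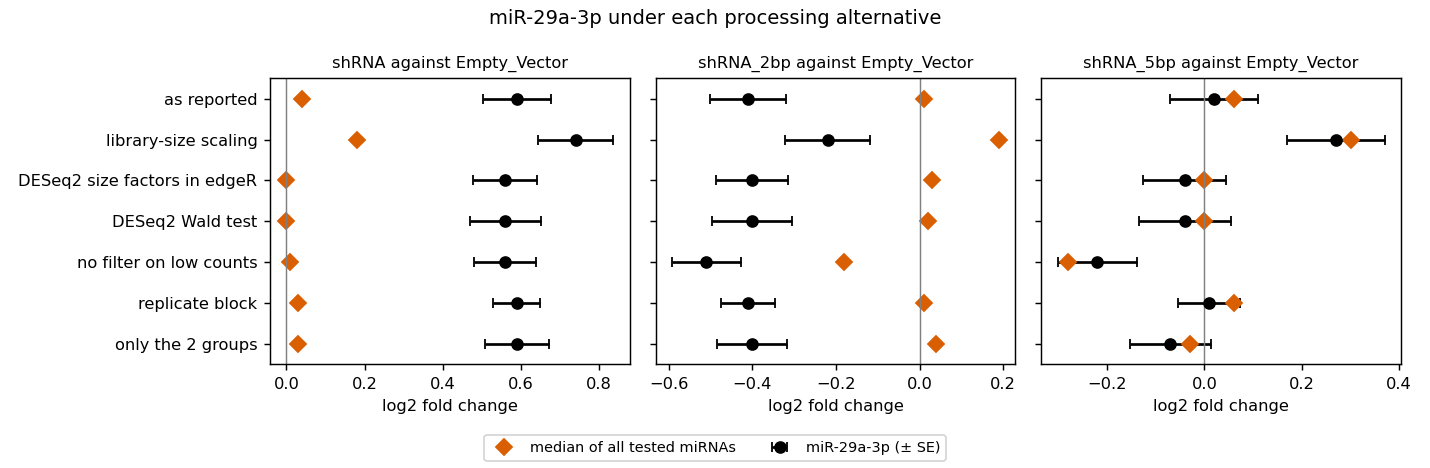
Log2 fold change of miR-29a-3p (circles, ± SE) and the median of all tested miRNAs (diamonds) against the empty vector, for the reported fit and 6 alternatives. In the shRNA panel miR-29a-3p lies far to the right of the median throughout, while in the shRNA_5bp panel both move together, to 0.27 and 0.3 with library-size scaling.

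Between the hairpins the order of miR-29a-3p was shRNA, then shRNA_5bp, then shRNA_2bp, and every step passed the test. It was 2-fold lower with shRNA_2bp than with shRNA (SE 0.091 on the log2 scale, adjusted p = 1.42e-10). ShRNA_5bp was lower than shRNA by 1.49-fold (-0.57 ± 0.090, adjusted p = 3.94e-06). It was higher than shRNA_2bp by 1.34-fold (0.43 ± 0.094, adjusted p = 0.000305). That last value was 0.27 without shRNA_5bp replicate 4 (adjusted p = 0.0287) and 0.27 when only those 2 groups were fitted (adjusted p = 0.0128). The empty vector and shRNA_5bp were the only neighbours in the order that did not differ beyond their spread.

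MiR-29b-3p, the guide made from both loci, was highest with shRNA, where a single library stood far above the rest. Its levels were 10.59, 7.696, 5.185 and 5.411 CPM with the empty vector and 11.41, 11.62, 10.69 and 30.26 CPM with shRNA. The 4 shRNA libraries all lay above the empty vector, 3 of them by a narrow margin over its highest library. With shRNA_2bp the levels were 8.98, 6.332, 0.7096 and 3.273 CPM, and with shRNA_5bp 4.062, 5.569, 6.904 and 10.94 CPM, both overlapping the empty vector. These rest on 1 to 18 counts per library in the mutated-hairpin groups.

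For miR-29b-3p the fitted rise with shRNA was 1.147 ± 0.383 on the log2 scale (2.21-fold, adjusted p = 0.0293). It did not pass without shRNA replicate 4 (0.64, adjusted p = 0.088), without empty-vector replicate 2 (1.25, adjusted p = 0.0567), 3 (adjusted p = 0.056) or 4 (0.96, adjusted p = 0.116), or when only the 8 libraries of both groups were fitted (1.14, adjusted p = 0.0826). Values against the empty vector were -0.49 ± 0.546 with shRNA_2bp (adjusted p = 0.444) and -0.05 ± 0.526 with shRNA_5bp (adjusted p = 0.942). The interval for shRNA_2bp ran from -1.68 to 0.70, which includes a fall as large as the rise with shRNA. MiR-29b-3p was lower with shRNA_2bp than with shRNA (-1.64 ± 0.504, adjusted p = 0.00966; -1.12, adjusted p = 0.0095, without shRNA replicate 4). That comparison gave -1.61 (adjusted p = 0.0585) when only the 8 libraries of both groups were fitted. Its fall from shRNA to shRNA_5bp was just past the threshold (-1.20 ± 0.488, adjusted p = 0.0498). Without shRNA replicate 4 it was -0.69 (adjusted p = 0.107), without shRNA_5bp replicate 1, 2 or 3 it was -1.06, -1.02 or -1.19 (adjusted p = 0.114, 0.187 and 0.0856), and without replicate 4 it was -1.69 (adjusted p = 0.0269).

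MiR-29c-3p, the guide that differs from miR-29a-3p at 1 base, was near the limit of counting with shRNA_2bp. How reads that fit both sequences were assigned is not given in the sources used here. MiR-29a-3p had 11715 counts with the empty vector against 102 for miR-29c-3p, and the share of misassigned reads in the miR-29c-3p counts, fold changes and ratios was not tested. Its counts were 29, 36, 8 and 29 with the empty vector, 18, 22, 16 and 31 with shRNA, 2, 3, 1 and 1 with shRNA_2bp, and 6, 8, 3 and 3 with shRNA_5bp. As levels these were 2.802 to 6.535 CPM, 2.307 to 4.835 CPM, 0.7096 to 1.357 CPM and 1.824 to 6.093 CPM in the same order. Every shRNA_2bp library lay below every library of the other groups, and those groups overlapped one another.

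The fit put miR-29c-3p lower with shRNA_2bp than with the empty vector (-1.86 ± 0.549, adjusted p = 0.00424) and than with shRNA (-1.68 ± 0.557, adjusted p = 0.01). MiR-29c-3p passed the low-count filter only through libraries of the other groups, as no shRNA_2bp library exceeded 1.43 CPM before scaling. That filter favours a low value with shRNA_2bp, so calls against this group are not independent of it. When only the 2 groups compared were fitted, miR-29c-3p did not pass the filter. Summed over 4 libraries, 7 counts with shRNA_2bp against 102 with the empty vector gave a ratio of 0.322 after division by library totals, with an exact 95% interval of 0.126 to 0.688. That interval covers counting error only. In shRNA and shRNA_5bp libraries miR-29c-3p stood at -0.18 ± 0.314 (adjusted p = 0.72) and -0.27 ± 0.433 (adjusted p = 0.608) against the empty vector. It was higher with shRNA_5bp than with shRNA_2bp (1.59 ± 0.661, adjusted p = 0.0408). That call was lost in 10 of 13 alternatives, with adjusted p up to 0.117. Among the fits without 1 library it passed only without shRNA_5bp replicate 4 (adjusted p = 0.038).

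MiR-29c-5p, the opposite arm of Mir29c, outnumbered miR-29c-3p, the arm named as guide above, in every library. The libraries read 14.42, 14.46, 13.16 and 16.71 CPM with the empty vector and 11.79, 12.76, 10.51 and 13.57 CPM with shRNA. With shRNA_2bp they read 8.382, 9.499, 17.03 and 8.182 CPM, and with shRNA_5bp 17.26, 19.68, 18.41 and 18.24 CPM. The shRNA_5bp libraries lay above all others, and replicate 3 of shRNA_2bp stood apart from its group.

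The test did not call miR-29c-5p with shRNA (-0.29 ± 0.172, adjusted p = 0.205) or with shRNA_5bp (0.32 ± 0.197, adjusted p = 0.167) against the empty vector. With shRNA_5bp it did pass under library-size scaling (0.57, adjusted p = 0.0167). MiR-29c-5p fell with shRNA_2bp at the edge of the threshold (-0.48 ± 0.213, adjusted p = 0.0498). That call was lost in 13 of 14 alternatives, including the fits without each single library other than shRNA_2bp replicate 3, with adjusted p up to 0.229. Without shRNA_2bp replicate 3 the value was -0.83 (adjusted p = 0.00226). MiR-29c-5p was higher with shRNA_5bp than with shRNA_2bp (0.80 ± 0.235, adjusted p = 0.00461), though without the filter on low counts the adjusted p was 0.0683. Compared with shRNA, shRNA_5bp was also higher (0.61 ± 0.199, adjusted p = 0.0113), but this was lost in 6 of 14 alternatives. Among these, it was 0.45 without shRNA replicate 1 (adjusted p = 0.0864), 0.48 without replicate 2 (adjusted p = 0.0687) and 0.40 without replicate 3 (adjusted p = 0.125). Without shRNA_5bp replicate 2 or 4 it was 0.57 (adjusted p = 0.0515) or 0.47 (adjusted p = 0.0842), and without the low-count filter 0.40 (adjusted p = 0.278).

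**Figure D3:**
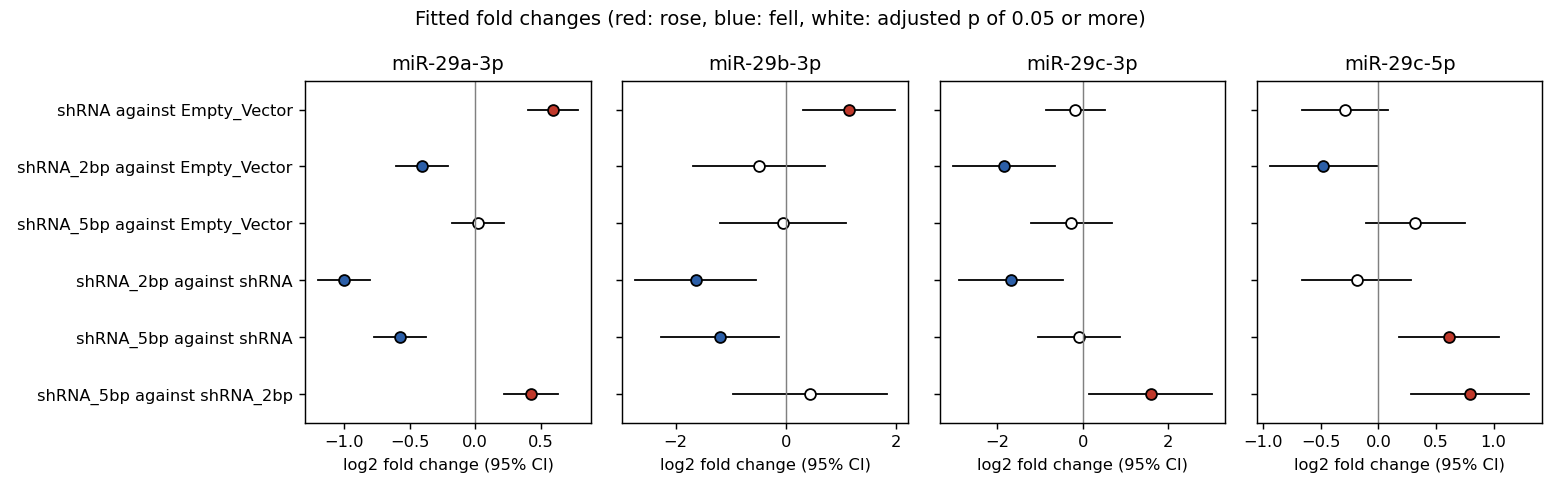
Log2 fold changes of the 4 tested arms (horizontal axis, a separate range in each panel) with 95% confidence intervals, for 6 comparisons. Red points rose, blue points fell and white points had an adjusted p of 0.05 or more; intervals are narrow for miR-29a-3p and wide for miR-29b-3p and miR-29c-3p, which rest on few counts.

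Called miRNAs were common in the whole table, and the counts of family arms are read against that. With shRNA 2 of the 4 tested arms rose and 0 fell, when 34.8% of all 483 miRNAs were called (19.7% up, 15.1% down). The libraries of 2 arms did not overlap, against 32.9% of all miRNAs. With shRNA_2bp 3 of 4 fell, when 65.6% of miRNAs were called (33.3% up, 32.3% down), and DESeq2 called 2 falls. There 2 arms did not overlap, against 59.2% of all. With shRNA_5bp 0 of 4 were called by edgeR, 0 had an unadjusted p below 0.05 and DESeq2 called 0, when 58.2% of all miRNAs changed (31.5% up, 26.7% down). A single arm, miR-29c-5p, did not overlap, against 50.3% of all. Over the 4 arms the median log2 fold change came to 0.21 (shRNA), -0.48 (shRNA_2bp) and -0.02 (shRNA_5bp), beside 0.04, 0.01 and 0.06 over all tested miRNAs. Between hairpins 3 of 4 were lower with shRNA_2bp than with shRNA, where 64.6% of miRNAs were called (31.1% up, 33.5% down), and 3 did not overlap, against 58.4% of all. From shRNA to shRNA_5bp 2 fell and 1 rose, where 53.0% were called (28.4% up, 24.6% down), and 2 did not overlap, against 48.7%. With shRNA_5bp 3 of 4 were higher than with shRNA_2bp, where 59.6% were called (36.9% up, 22.8% down), and 3 did not overlap, against 53.0%. With 4 arms, these shares are too coarse to set the family apart from the background.

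Arms that did not pass the filter were counted too thinly for a test. MiR-29a-5p, the opposite strand of the dominant guide, had 7 counts over the 4 empty-vector libraries, where miR-29a-3p had 11715. It had 14 counts with shRNA, 2 with shRNA_2bp and 0 with shRNA_5bp. The 0 of 5736533 counts allows up to 0.523 CPM before scaling (3 counts over the group), which is above the 0.236 CPM of the empty vector, so a difference was not detectable at this depth.

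MiR-29b-1-5p, from chromosome 6, had 20 counts with the empty vector, 24 with shRNA, 3 with shRNA_2bp and 3 with shRNA_5bp. Its ratio, after division by library totals, against the empty vector was 1.41 (exact 95% interval 0.748 to 2.7) with shRNA, 0.704 (0.134 to 2.37) with shRNA_2bp and 0.776 (0.148 to 2.62) with shRNA_5bp. All 3 intervals include equality. MiR-29b-2-5p, from chromosome 1, had 53 counts with the empty vector and 53 with shRNA, but 2 with shRNA_2bp and 8 with shRNA_5bp. Its ratio for shRNA_2bp against the empty vector was 0.177, with an interval of 0.0209 to 0.672 that covers counting error only. For shRNA_5bp the ratio was 0.781 (0.321 to 1.65).

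The arms that name a single locus were summed by chromosome, a grouping made after the values were seen and given without a test. Reads of Mir29a and the 5p arm of Mir29b-1 outnumbered those of Mir29c and the 5p arm of Mir29b-2 by 17.6 to 24.4 times with the empty vector. The range was 32.5 to 40.4 times with shRNA, 17.4 to 38.7 times with shRNA_2bp and 16.5 to 20.6 times with shRNA_5bp. The shRNA libraries lay above the empty-vector libraries without overlap. The chromosome 1 arms alone were 16.3 to 20.8 CPM before scaling with the empty vector and 15.1 to 21.5 with shRNA, which overlap. They were 9.35 to 18.5 with shRNA_2bp and 24 to 26 with shRNA_5bp.

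Ratios of 2 arms within a library need no scaling between libraries. Of the 24 differences tested (4 ratios in 6 comparisons) none passed adjustment, but the design left little room for a pass. The smallest exact permutation p that 4 against 4 libraries allow is 0.0286 (two-sided), and its adjusted value was 0.229. With 24 tests, a ratio at that p could pass only if many others reached it too. Lack of a pass therefore does not show that ratios were equal. MiR-29b-3p was 1.62 to 2.06 times miR-29c-3p with the empty vector and 2.77 to 6.26 times with shRNA, without overlap (log2 difference 1.23, exact p = 0.0286, adjusted p = 0.229). MiR-29c-3p relative to miR-29a-3p was lower with shRNA_2bp than with the empty vector in every library (-1.17, exact p = 0.0286, adjusted p = 0.229). The miR-29c-3p counts with shRNA_2bp were only 1 to 3 per library, and miR-29c-3p passed the low-count filter only through the other groups. The ratio of the Mir29c arms, miR-29c-5p to miR-29c-3p, was 2.21 to 5.97 with the empty vector, 2.81 to 5.11 with shRNA, 7 to 24 with shRNA_2bp and 2.83 to 10 with shRNA_5bp. The shRNA_2bp and shRNA ranges did not overlap (1.18, exact p = 0.0286, adjusted p = 0.229), but the denominators with shRNA_2bp were 1 to 3 counts. MiR-29b-3p relative to miR-29a-3p overlapped in all 6 comparisons, with log2 differences from -0.88 to 0.45.

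**Figure D4:**
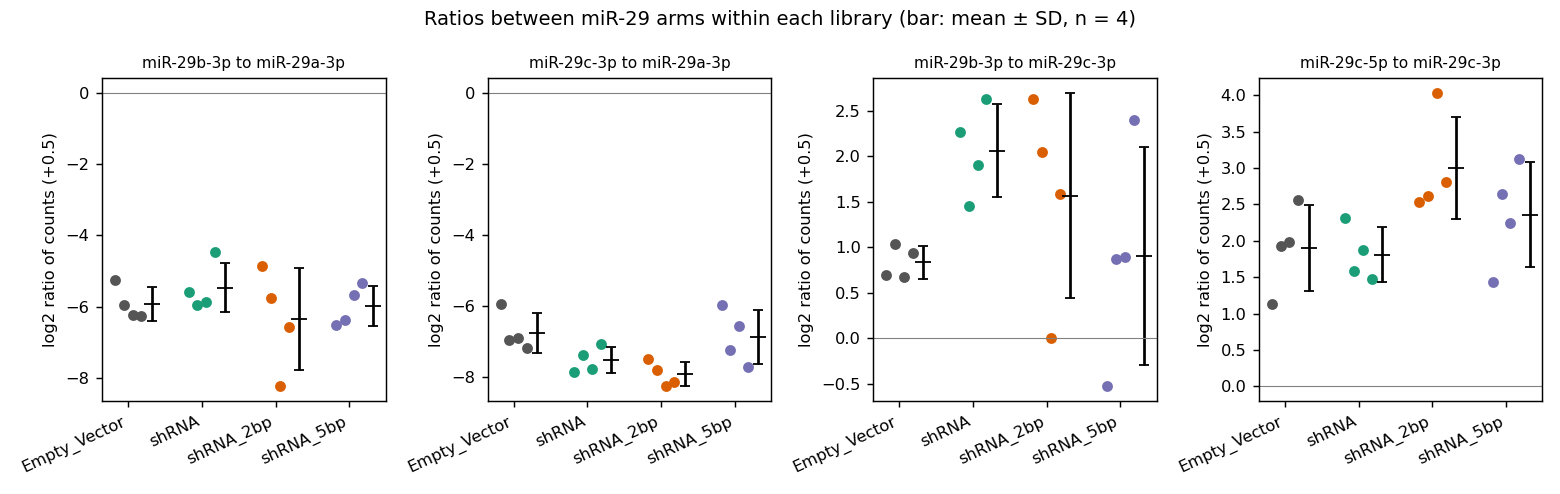
Log2 ratio of counts (0.5 added to each) between 2 miR-29 arms in the same library, by group. Points are libraries, bars give the mean ± SD (n = 4), and the grey line marks equal counts; miR-29c-5p lies above miR-29c-3p in all 16 libraries, and both miR-29b-3p and miR-29c-3p lie far below miR-29a-3p.

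The miRNAs whose profile over the 16 libraries was most like a guide were found by the root mean square difference in log2 CPM (prior count 2), each miRNA centred on its own mean, among 358 others of at least 10 CPM. For miR-29a-3p they were miR-668-3p (0.154), miR-1839-5p (0.201) and miR-3099-3p (0.224), where the median over the candidates was 0.53. Against the empty vector miR-668-3p had log2 fold changes of 0.80 with shRNA, -0.54 with shRNA_2bp and 0.18 with shRNA_5bp, and the third of these did not pass the test (adjusted p = 0.139). As miR-668-3p was picked for likeness in these same libraries, its similar fold changes are not independent of that choice. For miR-29c-3p the nearest were miR-370-5p (0.413), miR-12194-3p (0.414) and miR-330-5p (0.425; median 0.80). MiR-29b-3p had no near neighbour, since its closest, miR-1969, differed by 0.672 (median 1.03). The other 2 were miR-3102-5p.2-5p (0.683) and miR-326-3p (0.687). MiR-29b-3p and miR-29c-3p rest on few counts in the mutated-hairpin groups, and the part of counting noise in their distances was not tested. With a prior count of 0.5 the 3 nearest to miR-29a-3p were the same. The nearest to miR-29b-3p was then miR-3102-5p.2-5p (0.723) and the nearest to miR-29c-3p miR-409-3p (0.472), and 2 of the 3 names were shared in each case.

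MiRNAs listed as rising with neuronal maturation, like miR-29, were called in both directions, at shares near those of all miRNAs. Of 16 such miRNAs 3 rose and 2 fell with shRNA (median 0.05), 6 rose and 4 fell with shRNA_2bp (0.09), and 6 rose and 5 fell with shRNA_5bp (0.05). Over all tested miRNAs 34.8%, 65.6% and 58.2% were called, with medians of 0.04, 0.01 and 0.06. The most abundant of the list, miR-128-3p, fell in all 3 groups (-0.37, -0.83 and -0.81), and let-7c-5p (0.05, -0.01 and -0.14) and miR-26a-5p (0.05, 0.06 and 0.05) passed in none. Unlike miR-29a-3p, miR-128-3p was below the empty vector with shRNA as well. That difference between both miRNAs was not tested.

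Marker miRNAs of neurons and of other cells are given as whole lists, and their calls stand beside the 34.8% (shRNA), 65.6% (shRNA_2bp) and 58.2% (shRNA_5bp) called over all miRNAs. The 8 neuron miRNAs, of which the maturation list holds 5, summed to 447100 to 479800 CPM with the empty vector, 345900 to 399000 CPM with shRNA, 250800 to 278200 CPM with shRNA_2bp and 264200 to 319300 CPM with shRNA_5bp, mostly as miR-128-3p. Of the 8, 4 rose and 2 fell with shRNA, 2 rose and 5 fell with shRNA_2bp, and 5 rose and 2 fell with shRNA_5bp (medians 0.30, -0.29 and 0.39). The 6 astroglia-leaning miRNAs, all of them tested, summed to 2205 to 2519 CPM with the empty vector, 2421 to 2657 CPM with shRNA, 3998 to 4392 CPM with shRNA_2bp and 2727 to 3011 CPM with shRNA_5bp. Of these 3, 4 and 4 rose, respectively, and 0 fell (edgeR). The sum was mostly miR-21a-5p and miR-22-3p, and miR-22-3p is also in the maturation list. Of the 6, 3 were not highest with shRNA_2bp (miR-23a-3p and miR-27a-3p had their highest mean with shRNA_5bp, and miR-31-5p with shRNA). Vessel and fibroblast miRNAs (8 names, 6 tested) summed to 692.3 to 797.7, 654.6 to 741.7, 1135 to 1305 and 1088 to 1214 CPM in the same order, with 0, 4 and 5 rises. Among 6 microglia and leukocyte miRNAs the sums were 51.07 to 61.35, 77.79 to 106.5, 88.7 to 104.5 and 65.71 to 86.29 CPM. Of these 2 were tested, with 2, 1 and 1 rises and 0 falls. MiR-146a-5p rose with shRNA (0.477), shRNA_2bp (0.825) and shRNA_5bp (0.463), and miR-155-5p with shRNA only (2.191). MiR-142a-3p and miR-223-3p of the same list had no count in any group. The 4 oligodendrocyte miRNAs summed to at most 13.91 CPM in any library, with 1 tested that did not pass in any comparison, and the 3 erythroid ones to at most 2.455 CPM. The part of these cells in the miR-29 results was not tested.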

How the data were processed

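MiRNAs were counted in 16 small RNA libraries from cultured mouse forebrain neurons. The authors deposited raw counts of reads per mature miRNA, and all 16 value columns were matched to samples by title. The submitters' processing notes name Trim Galore 0.6.0, cutadapt 1.15, Bowtie 1.1.1, edgeR and build GRCm38.p6, without roles. The miRNA annotation release is not given in the sources used here. Per the labels' protocols, libraries were amplified by PCR, and no molecular identifiers are mentioned, so counting intervals and floors (3 counts) cover counting error only.

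A single model took in the 16 libraries, with a mean for each of the 4 groups (12 residual degrees of freedom). edgeR 4.0.16 (limma 3.58.1, R 4.3.3) was used with its filter on low counts, TMM scaling and robust quasi-likelihood tests. Of 1978 names 483 were tested. A standard error is the log2 fold change over the square root of the F value, and 95% intervals used a t distribution. DESeq2 1.42.0, other scalings, no filter, a replicate block, fits of 2 groups and fits without each library were the alternatives. Ratios within libraries were tested by exact permutation. The fitting code was tested on simulated data.

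The members and lists were chosen with earlier results of these data known. Named miRNAs were the members, the other family arms, the 3 nearest profiles of each guide and some members of the lists. For the pairing check, each library's departure from its group's mean was correlated between libraries of the same number (361 miRNAs, at least 10 CPM). The numbers paired shRNA_2bp with shRNA (0.16 to 0.22 in 4 of 4 pairs). The reported fit and the p-values given for ratios did not use that pairing, and a replicate block was run as an alternative. In no other comparison did all 4 pairs exceed the threshold of 0.1. With shRNA and the empty vector 2 pairs did (lowest 0.096). Yet all 8 libraries of that comparison correlated best with their own number, as they did with shRNA_2bp and shRNA. Pairing of shRNA with the empty vector was therefore left undecided. Counts of replicates within a group differed by 4 to 84.3 times the sampling noise (chi-square per degree of freedom), so no 2 libraries of the same group were the same.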

Additional observations from a re-analysis of the deposited data

Results flagged for a closer look

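In shRNA replicate 4, miR-29b-3p read 30.26 CPM (194 counts), far above the 10.69 to 11.62 CPM of the other 3 libraries of that group. In shRNA_2bp replicate 3, miR-29c-5p read 17.03 CPM (24 counts), against 8.182 to 9.499 CPM in the other 3. Both gaps exceeded the Dixon limit for 4 values (0.952 and 0.851 of the group's range). Chance passes that limit in about 1 of 20 groups, and 16 groups of values were examined. What set these 2 libraries apart was not tested.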

How the results depend on the processing

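Of 24 results (4 arms in 6 comparisons), 14 passed the test and 6 of these kept their direction and call in all 13 or 14 alternatives run, namely miR-29a-3p with shRNA against the empty vector and in all 3 comparisons between hairpins, and miR-29c-3p with shRNA_2bp against the empty vector and against shRNA. When only 2 groups were fitted, miR-29c-3p did not pass the filter in any comparison with shRNA_2bp or between shRNA_5bp and the empty vector, nor did miR-29b-3p between shRNA_5bp and shRNA_2bp, so those fits gave no value. The kept calls of miR-29c-3p with shRNA_2bp therefore lack that fit. In the reported fit miR-29c-3p passed the filter only through libraries of the other groups, so these calls are not independent of the filter. DESeq2 gave no adjusted p for miR-29c-3p between shRNA_5bp and shRNA. Under library-size scaling miR-29a-3p stood at -0.22 with shRNA_2bp (adjusted p = 0.0532) and 0.27 with shRNA_5bp, and without the low-count filter at -0.22 with shRNA_5bp; the median of all miRNAs in these fits was 0.19, 0.3 and -0.28. MiR-29b-3p with shRNA was 1.14 when only 2 groups were fitted and 0.64 to 1.37 without single libraries, and the cause was not tested. The replicate block ended 1 call, that of miR-29c-5p with shRNA_2bp against the empty vector (-0.47, adjusted p = 0.0649), and changed no other call of a tested arm. The labels do not say whether a replicate number marks a shared culture. Counts of called miRNAs stayed within 1.5 times, at 145 to 193 (shRNA), 290 to 333 (shRNA_2bp) and 261 to 309 (shRNA_5bp) against the empty vector. With shRNA, 95 rose and 73 fell, but 149 and 44 did so under library-size scaling; with shRNA_2bp 161 and 156 became 206 and 127, and with shRNA_5bp 152 and 129 became 216 and 81. Without the filter the last 2 were 123 and 199, and 118 and 191. Depth limits miR-29c-3p, at 1 to 3 counts per shRNA_2bp library, and the untested arms.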
